A study of Mus musculus with 36 samples.

Results

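A total of 434 intergenic H3K9ac peaks were higher in cystathionine gamma-lyase (CSE) knockout smooth muscle cells than in wild-type cells. They were every peak of the authors' H3K9ac comparison that was annotated as distal intergenic and had a larger knockout than wild-type signal. They made up 434 of the 1419 listed intergenic H3K9ac peaks, or 30.6% (95% exact binomial interval 28.2% to 33.1%), while 1850 of all 8115 listed H3K9ac peaks, or 22.8%, were higher in the knockout. Because the peaks were chosen by the measured knockout and wild-type signals, their fold changes, p-values and false discovery rates (FDR) are given as descriptions of the authors' deposited table and were not tested again.

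The knockout group consisted of primary aortic smooth muscle cells from mice lacking CSE in the whole body, and the wild-type group of the same cells from C57BL/6N mice. Both groups had received 1 µM angiotensin II, a vasoconstrictor peptide, for 24 h, so no group was without it. H3K9ac was profiled by chromatin immunoprecipitation and sequencing in 3 knockout and 3 wild-type libraries with 3 input libraries each, and the labels do not say whether libraries came from separate animals or cultures. The deposited tables hold 1 value per group and none per library, so depth and the spread between replicates are unknown here.

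H3K9ac is acetylation of lysine 9 of histone H3. It is laid down by acetyltransferases, removed by deacetylases, and found at active promoters and at active distal enhancers. CSE, encoded by Cth, produces hydrogen sulfide from cysteine, and in arteries this gas is known for relaxing smooth muscle. In bulk chromatin, a higher signal at a peak cannot be told apart from a larger share of cells that carry the mark there.

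No genome came with the files, so the sequences of the peaks themselves could be shown only where a peak overlapped a start-site window of the RefSeq tables (GRCm38.p6, 250 bases before to 50 after a start site). Of the 393 higher intergenic peaks on the chromosomes these windows cover, 4 did so (1.02%), against 23 of 969 lower intergenic peaks (2.37%). The 3 windows of 300 bases that lay wholly inside such a peak are shown. Each starts a long non-coding RNA in RefSeq. Capitals mark matches, on either strand, to the AP-1 motif TGANTCA, the TEAD motif GGAATG, the RUNX motif TGTGGT, the GATA motif AGATAA or the CArG box, the site of serum response factor.
Gm33089: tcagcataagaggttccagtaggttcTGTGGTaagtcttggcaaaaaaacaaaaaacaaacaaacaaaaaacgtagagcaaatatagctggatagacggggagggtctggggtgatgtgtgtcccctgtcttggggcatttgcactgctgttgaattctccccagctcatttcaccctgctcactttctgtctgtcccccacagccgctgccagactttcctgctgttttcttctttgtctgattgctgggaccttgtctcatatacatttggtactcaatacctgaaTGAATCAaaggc
Gm34403: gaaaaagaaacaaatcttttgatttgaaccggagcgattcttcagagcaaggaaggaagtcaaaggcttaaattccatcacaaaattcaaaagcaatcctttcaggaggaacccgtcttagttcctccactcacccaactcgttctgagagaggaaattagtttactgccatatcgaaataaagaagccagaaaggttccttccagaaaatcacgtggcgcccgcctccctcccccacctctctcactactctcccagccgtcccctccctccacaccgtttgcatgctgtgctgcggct
Gm40226: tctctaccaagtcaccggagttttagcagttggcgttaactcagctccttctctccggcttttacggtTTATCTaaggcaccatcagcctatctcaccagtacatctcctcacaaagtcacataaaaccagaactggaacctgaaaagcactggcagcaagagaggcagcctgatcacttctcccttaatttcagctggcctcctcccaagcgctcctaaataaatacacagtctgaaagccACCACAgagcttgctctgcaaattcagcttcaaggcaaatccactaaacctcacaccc

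The Gm33089 window (chr17:56487111-56487410, plus strand) lay in the peak annotated 10.4 kb upstream of Ptprs, which encodes a receptor tyrosine phosphatase. It held 1 match to the AP-1 motif and 1 to the RUNX motif. The Gm34403 window (chr2:170184718-170185017, minus strand) lay in the peak 35.9 kb upstream of Zfp217, a zinc-finger gene, and held none of the 5 motifs. The Gm40226 window (chr4:109550709-109551008, plus strand) held 1 RUNX and 1 GATA match. Among all 32851 RefSeq windows of the same length, 7.81% held the AP-1 motif, 14.7% the TEAD motif, 1.63% the CArG box, 16.8% the RUNX motif and 11.2% the GATA motif. The 3 windows were 46, 48.3 and 48.0% G and C in the order shown, against a median of 52.7% over all windows. A second Gm33089 window (chr17:56487497-56487796), with 104 of its 300 bases inside the same Ptprs peak, was 67.3% G and C and is not shown.

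A further sequence shown is the promoter of Kank3, a gene of the Kank family of cytoskeletal adaptors, since a listed start-site peak and an intergenic peak were both higher there. The window (chr17:33810273-33810572, plus strand) had no match to the 5 motifs.
Kank3: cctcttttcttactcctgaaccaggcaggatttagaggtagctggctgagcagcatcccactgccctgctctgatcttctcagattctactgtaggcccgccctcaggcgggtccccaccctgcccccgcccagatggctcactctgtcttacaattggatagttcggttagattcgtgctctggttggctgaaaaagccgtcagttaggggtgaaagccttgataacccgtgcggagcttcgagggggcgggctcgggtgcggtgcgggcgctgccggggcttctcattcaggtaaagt

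The mature microRNA of the best-known microRNA gene annotated to a higher intergenic peak is shown with its seed, bases 2 to 8, in capitals.
mmu-miR-21a-5p: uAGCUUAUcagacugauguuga

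In the authors' deposited table the median log2 signal of the 434 peaks was 5.47 in the knockout and 4.04 in the wild type, and the median fold change was 2.58. The lower quartile of the fold changes was 2.07 and the upper 3.43. The fold change was at least 2 at 342 peaks, at least 4 at 80 and at least 8 at 22. At an FDR under 0.05 in that table, 74 intergenic peaks were higher, or 5.21% of the 1419 listed, while over all H3K9ac peaks 325 of 8115 (4.0%) were. The 74 were 17.1% of the 434 peaks, and 190 of the 985 lower intergenic peaks (19.3%) had an FDR under 0.05.

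**Figure D1:**
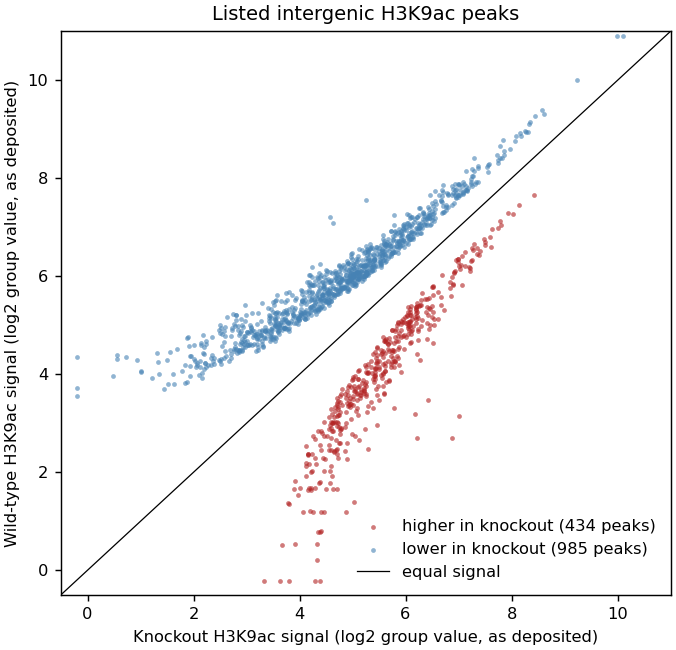
Log2 H3K9ac signal of each listed intergenic peak in knockout cells (horizontal axis) and wild-type cells (vertical axis), as the authors deposited it. The 434 peaks below the line of equal signal are higher in the knockout, the 985 above it are lower, and a gap along the line separates them because the table lists only selected peaks.

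The size of the change went with the wild-type level, as the plot of knockout against wild-type signal shows. In the 109 peaks of lowest wild-type signal the authors' deposited table gave a median log2 signal of 4.48 in the knockout and 2.38 in the wild type, a median of 4.66-fold. In the 109 peaks of highest wild-type signal it gave 6.52 in the knockout and 5.54 in the wild type, a median of 1.84-fold. The number with an FDR under 0.05 did not follow that order, at 25, 14, 20 and 15 over 4 groups of peaks ordered from the lowest to the highest wild-type signal. Low wild-type signal and large folds come from the same counts, and only selected peaks are listed. The part of counting noise and of that selection in this pattern was not tested.

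The peaks nearest to equal signal still lay well away from it. Just above were peaks annotated to Gm23056 (knockout 6.98, wild type 6.36), to Fstl1, which encodes a secreted follistatin-like glycoprotein (7.12 and 6.49), and to Rbp7, a retinol-binding protein gene (7.93 and 7.30), in the authors' deposited table. Just below were those annotated to 4930445N18Rik (knockout 7.56, wild type 8.12), to Eif4b, a translation initiation factor gene (7.36 and 7.92), and to Gm45011 (knockout 7.31, wild type 7.88), in that table. The table lists no H3K9ac peak with a p under 0.0001 (smallest 1.01e-04), so peaks with smaller p-values, if there were any, are not described here.

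Compared with the 985 lower intergenic peaks, which had median log2 signals of 4.78 in the knockout and 5.92 in the wild type in the authors' deposited table, the higher ones were narrower. Their median width was 568 bases, against 716 bases for the lower peaks, and 2 of them exceeded 2 kb, against 36 of the lower ones. Beside the higher peaks in other places, the 434 resembled the 571 higher intron peaks in signal and fold (medians of 5.30 in the knockout, 3.87 in the wild type and 2.64-fold in the authors' deposited table). The 434 higher peaks within 1 kb of a start site, as many as the intergenic ones, were stronger and changed less (6.56 in the knockout, 5.43 in the wild type, 2.26-fold in the authors' deposited table). Higher peaks were also narrower in these places. Their median width was 519 bases at introns, against 598 bases over all listed intron peaks. Within 1 kb of a start site it was 952 bases, against 1027 bases over all such listed peaks. The share of listed peaks that were higher was 30.6% for intergenic, 25.5% for intron and 19.2% for start-site peaks.

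The 10 peaks of smallest p each stood alone, with no other higher intergenic peak within 100 kb. The smallest p belonged to a peak 41.6 kb downstream of the annotated start of Schip1, which encodes a cytoskeletal linker protein (chr3:68637736-68638309), with a log2 signal of 5.78 in the knockout and 3.31 in the wild type, 5.58-fold higher with an FDR of 0.00680 per the authors' deposited table. The Schip1 start-site peak went the other way in the same table, at 6.07 in the knockout and 7.07 in the wild type (FDR 0.0294).

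A peak 10.8 kb downstream of the start of Poc1b, a centriole protein gene (chr10:99203644-99204964), had 7.0 in the knockout and 3.14 in the wild type in the authors' deposited table, 14.5-fold higher with an FDR of 0.00833. A second intergenic peak annotated to Poc1b, 21.8 kb from its start site, was listed as lower, at 4.73 in the knockout and 5.63 in the wild type in that table. Close upstream of Cntn5, a gene for a neural adhesion molecule of the contactin family (chr9:10909833-10910460), the authors' deposited table gave 5.02 in the knockout and 1.4 in the wild type, 12.3-fold higher with an FDR of 0.00987.

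Other peaks among the 10 of smallest p were annotated to numbered transcripts, and the nearest RefSeq coding gene is given for these. A peak 27.0 kb from Nkx2-3, a homeobox factor gene, had 6.46 in the knockout and 5.01 in the wild type in the authors' deposited table, 2.75-fold higher with an FDR of 0.00796. A peak 48.2 kb from Foxc1, a forkhead factor that acts in vascular and heart development, had 4.32 in the knockout and 0.21 in the wild type in that table, 17.3-fold higher with an FDR of 0.00806. Foxc1 was also the nearest coding gene of a lower intergenic peak, 4.80 kb away, with 5.13 in the knockout and 6.13 in the wild type in the same table. The rest of these numbered-transcript peaks were nearest to Megf10 (73.1 kb), Nhlrc2 (27.5 kb), Golm2 (20.9 kb), 4930522H14Rik (19.1 kb) and AA414768 (78.4 kb).

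Several of the largest folds were taken against wild-type values at the bottom of the scale. The 5 peaks annotated to Gm15208, Gm14019, 1500015L24Rik, Gm12299 and Gm5513 shared the lowest wild-type log2 signal of any listed H3K9ac peak, −0.21. Gm15208 had 4.38 in the knockout and was listed at 24.1-fold, and Gm14019 had 4.29 and was listed at 22.6-fold in the authors' deposited table. The third largest fold was not at the floor. A peak annotated to Gm23536 on chromosome 18 had 6.87 in the knockout and 2.69 in the wild type, 18-fold higher (FDR 0.0299) per the authors' deposited table. Folds against a value at that floor depend on how the authors set it, a step not given in the sources used here.

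Peaks with the strongest knockout signal, the highest 10, had mostly small folds. A peak 49.8 kb from Cdkn2aipnl had the highest knockout signal, 8.43, against 7.65 in the wild type, and was 1.71-fold higher with an FDR of 0.126 per the authors' deposited table. The Zfp217 peak whose sequence is given above followed, with 8.14 in the knockout and 7.45 in the wild type (1.61-fold, FDR 0.238 in the same table). A peak 13.8 kb upstream of Cxcl1, the gene of a neutrophil-attracting chemokine, had 7.81 in the knockout and 7.05 in the wild type (1.69-fold, FDR 0.235 in that table). Gm11774, 20.8 kb from the leukocyte antigen gene Cd7, was the exception, with 7.62 in the knockout and 6.59 in the wild type (2.04-fold, FDR 0.0115 in that table). Among the 10 strongest was also a peak upstream of Carlr at 7.64 in the knockout and 6.97 in the wild type in the authors' deposited table.

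The higher intergenic peaks were unevenly spread over the chromosomes. On chromosome 11, 55 of 86 listed intergenic peaks were higher (64.0%), on chromosome 18, 41 of 57 (71.9%), on chromosome 4, 36 of 58 (62.1%), on chromosome 16, 29 of 49 (59.2%), and on chromosome 19, 18 of 35 (51.4%). These 5 chromosomes were picked by this same share, so the split between them and the other chromosomes partly follows from that choice. It is given as a description. They held 179 of the 434 higher peaks (41.2%), against 10.8% of the lower ones. On the other 15 chromosomes 255 of 1134 intergenic peaks were higher, or 22.5%. Chromosome 7 had 8 of 87 (9.20%) and the X chromosome 2 of 25 (8.0%).

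**Figure D2:**
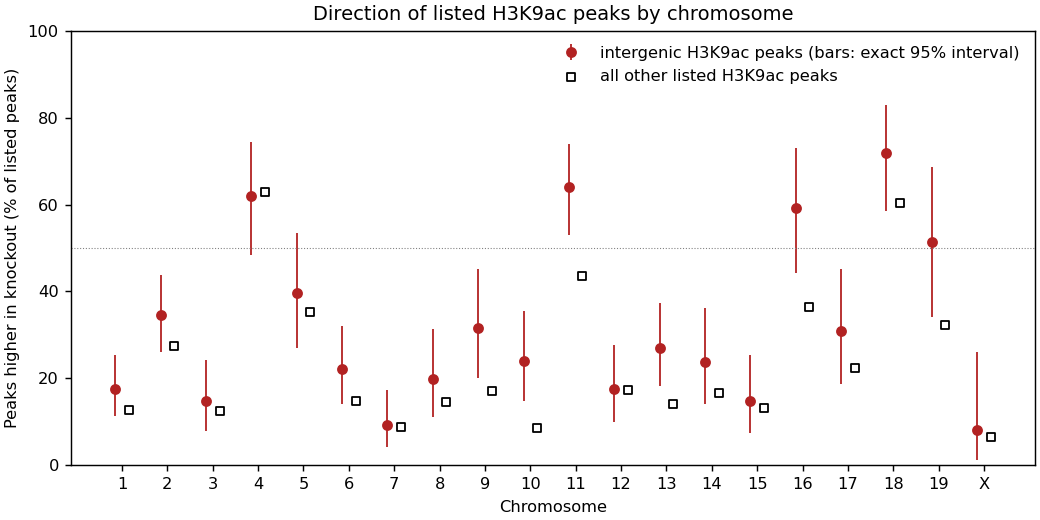
Share of listed H3K9ac peaks that were higher in the knockout on each chromosome, for intergenic peaks (filled circles, bars giving exact 95% intervals for counting error) and for all other listed H3K9ac peaks (open squares). Chromosomes 4, 11, 16, 18 and 19 stand above 50% for intergenic peaks, and the squares go up and down with the circles.

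Among H3K9ac peaks of all other annotations the share was 63.0% on chromosome 4, 60.4% on chromosome 18, 43.5% on chromosome 11, 36.5% on chromosome 16 and 32.2% on chromosome 19. It was 35.2% on chromosome 5, above chromosome 19, and 8.59% on chromosome 7. Across the 20 chromosomes the shares for intergenic and for other H3K9ac peaks had a Spearman correlation of 0.896 and a Pearson correlation of 0.935. Both shares come from the same libraries and the same normalisation, so they are not independent. With the share of H3K9me3 peaks that were higher, the Spearman correlation was -0.0195 and the Pearson correlation -0.0649. The peaks on the 5 chromosomes and elsewhere had like median folds, 2.62 and 2.57 in the authors' deposited table, and each set held 37 peaks with an FDR under 0.05, or 20.7% of those on the 5 chromosomes and 14.5% of those elsewhere. Whether the libraries differed in chromosome content was not tested, since no input values came with the tables.

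Most higher intergenic peaks lay within 50 kb of an annotated start site. Their median distance to the annotated start site was 12366 bases (95% interval from the order statistics 10895 to 13730), against 14441 bases for lower intergenic peaks. Of the 434, 174 (40.1%) were under 10 kb from it, 206 (47.5%) at 10 to 50 kb, 44 (10.1%) at 50 to 100 kb and 10 (2.30%) beyond 100 kb, where the lower peaks had 36.8, 54.8, 6.90 and 1.52%. The medians of the fold by distance ranged from 2.51 to 3.02, with no steady order. A total of 251 higher peaks (57.8%) and 55.9% of the lower ones lay upstream of the start site.

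Fewer than 1 in 2 of the annotated transcripts were coding. The authors' annotation tied 198 higher peaks (45.6%) to protein-coding genes, 79 to processed pseudogenes and 75 to long intergenic non-coding RNAs, and for lower peaks the coding share was 47.9%. In the RefSeq table, 77 of the 434 (17.7%) overlapped a gene that the authors' annotation did not count, against 14.5% of the lower peaks, and 9 of these were coding. The nearest RefSeq coding gene lay within 50 kb of 316 higher peaks (72.8%) and of 78.4% of the lower ones.

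Many of the peaks came in runs. Joining peaks with gaps of at most 100 kb, 130 of the 434 (30.0%) shared a run with another, in 54 runs, 11 of them with 3 or more and the largest with 5. Lower intergenic peaks, which are more numerous, shared runs in 37.1% of cases.

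On chromosome 16, 5 higher peaks stretched over 89.4 kb downstream of Cd47, the gene of the cell-surface signal that restrains phagocytes (chr16:49937452-50026879). In the authors' deposited table they had log2 signals of 5.25, 5.49, 7.07, 6.08 and 4.56 in the knockout, against 4.15, 3.47, 5.83, 5.21 and 2.56 in the wild type, which made them 1.84 to 4.06-fold higher. No other H3K9ac peak was listed within 50 kb, and 1 of the 5 had an FDR under 0.05.

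On chromosome 11, 5 higher peaks lay in 30.4 kb between Tns4, which encodes a tensin of focal adhesions, and Ccr7, which encodes a chemokine receptor of migrating leukocytes (chr11:99097469-99127901). In the authors' deposited table their log2 signals were 5.04, 5.39, 7.20, 5.55 and 7.38 in the knockout, against 3.65, 3.32, 6.19, 4.44 and 6.43 in the wild type. Folds ranged from 1.93 to 4.20, and 3 of the 5 had an FDR under 0.05. Both other listed peaks within 50 kb, in an exon and an intron of Tns4, were higher too, at 2.06 and 2.38-fold in that table.

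The chromosome 2 run extended over 142.8 kb between Cebpb, the gene of a transcription factor of inflammation, and Ptpn1, the gene of a phosphatase that damps insulin signalling (chr2:167760535-167903381). Its 5 peaks were 1.59 to 5.54-fold higher per the authors' deposited table, and 1 of the 5 had an FDR under 0.05. The largest change, 28.7 kb upstream of Ptpn1, had 5.12 in the knockout and 2.65 in the wild type (FDR 0.0310 in that table). A lower intergenic peak stood 6.16 kb from the Ptpn1 start site, with 6.42 in the knockout and 7.21 in the wild type in that table.

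Beside Socs3, a cytokine-induced inhibitor of JAK and STAT signalling, 4 higher peaks spanned 46.4 kb (chr11:117930381-117976733). In the authors' deposited table they had 7.03, 6.94, 5.92 and 6.31 in the knockout, against 6.15, 6.10, 5.02 and 5.10 in the wild type, and none of the 4 had an FDR under 0.05. The other 3 listed peaks within 50 kb, all at promoters of Pgs1, were higher as well, at 1.57 to 2.91-fold in that table. On chromosome 18, a run of 5 spanned 114.8 kb from Rps14 past Tcof1 to Arsi. These genes encode a ribosomal protein, a nucleolar protein and an arylsulfatase. The run was 1.73 to 4.72-fold higher per the authors' deposited table, with 1 lower peak inside it, and none of the 5 had an FDR under 0.05. The sixth run, of 4 peaks upstream of Gm25916 on chromosome 16, was 1.89 to 3.43-fold higher in that table. Of the 4, 1 had an FDR under 0.05, and all 6 listed peaks in and around the run were higher. A run of 4 beside Cops8 on chromosome 1, which encodes a COP9 signalosome subunit, had as many peaks as the Socs3 and Gm25916 runs. It was 2.06 to 3.34-fold higher in that table, and none of the 4 had an FDR under 0.05. No other H3K9ac peak was listed within 50 kb of it.

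**Figure D3:**
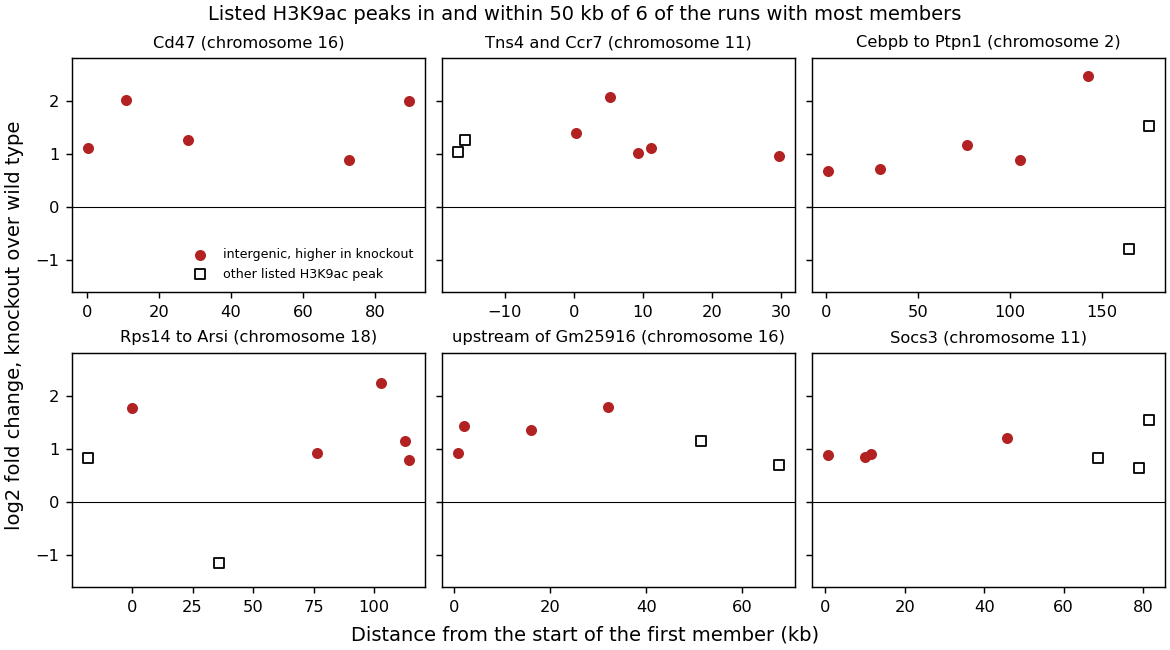
Log2 fold change, knockout over wild type, of each listed H3K9ac peak in 6 of the runs with most higher intergenic peaks and within 50 kb of them, by distance in kb from the start of the run. Filled circles are the higher intergenic peaks, open squares all other listed peaks, and 2 of the squares, at Ptpn1 and between Rps14 and Arsi, lie below 0.

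Direction was shared with close neighbours. For 86 higher intergenic peaks the nearest other listed H3K9ac peak lay within 10 kb, and 68 of these neighbours (79.1%) were higher too. The share was 55.8% at 10 to 50 kb, 47.4% at 50 to 100 kb, 40.0% at 100 to 500 kb and 52.9% beyond 500 kb, where 34 peaks fall. For lower intergenic peaks the nearest peak was higher in 6.06% of cases within 10 kb, 23.0% at 100 to 500 kb and 25.9% beyond. On the 5 chromosomes where over 50% of intergenic peaks were higher, the share within 10 kb was 93.2% for higher peaks. For lower peaks on these chromosomes it was 12.5% (1 of 8). On the other 15 chromosomes the share within 10 kb was 64.3% for higher peaks, against 5.79% for lower peaks there. Neighbouring peaks can share fragments and chromosome-wide shifts, and their directions come from the contrast that chose the peaks, so these shares are descriptions.

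**Figure D4:**
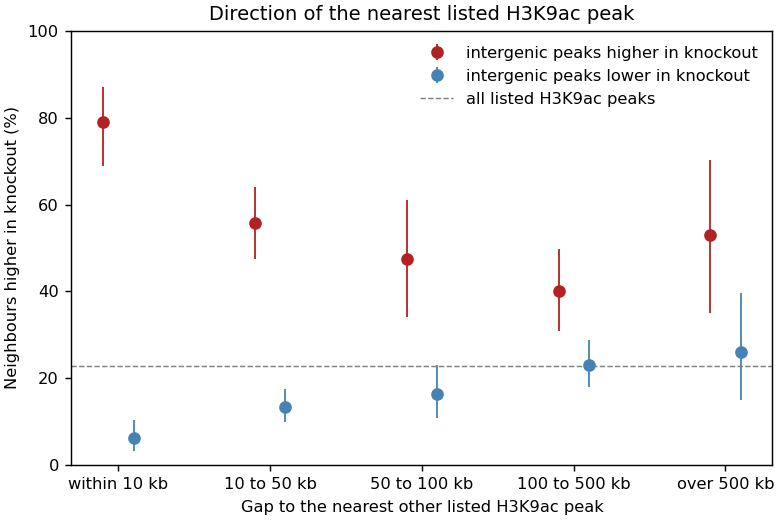
Share of nearest listed H3K9ac peaks that were higher in the knockout, by the gap to that peak, for intergenic peaks higher (red) and lower (blue) in the knockout, with exact 95% intervals for counting error. The dashed line is the 22.8% over all listed H3K9ac peaks, and the red and blue points are farthest apart within 10 kb, at 79.1% and 6.06%.

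The promoters of the annotated genes followed the intergenic peaks only in part. The 434 peaks were annotated to 392 genes, and 36 of them (9.18%) also had a listed H3K9ac promoter peak, which was higher at 18, lower at 16 and of both directions at Ptprs and Rpl26. Of the 879 genes of lower intergenic peaks, 98 (11.1%) had one, higher at 12, lower at 85 and both at 1. Of all listed H3K9ac peaks within 1 kb of a start site, 19.2% were higher. That is a share of peaks and not of genes, and the promoter peaks counted above reach out to 3 kb.

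At the 18 genes both elements were higher, and 4 of them are described here. Has1, a hyaluronan synthase gene, had 5.11 in the knockout and 3.90 in the wild type at its intergenic peak 6.89 kb upstream (FDR 0.270), and 2 promoter peaks 9.13 and 3.18-fold higher with FDRs of 0.0130 and 0.0115 in the authors' deposited table. Tnfrsf1b, which encodes tumour necrosis factor receptor 2, had 7.22 in the knockout and 6.17 in the wild type 10.5 kb upstream (FDR 0.0379), and 10.2 and 9.09 at its start site (FDR 0.0494), in that table. Limk1, the gene of a kinase that inactivates cofilin and so steadies actin filaments, was 12.1-fold higher at its intergenic peak (4.41 in the knockout, 0.81 in the wild type, FDR 0.0112) and 2.20-fold at its start site (FDR 0.0652) in the authors' deposited table. Kank3, whose promoter is printed above, had 5.80 in the knockout and 4.28 in the wild type 5.63 kb upstream, and 7.78 and 6.95 at its start site, in that table.

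At other genes the promoter was lower. Src, which encodes a tyrosine kinase of focal adhesions, had 5.75 in the knockout and 4.50 in the wild type 6.31 kb upstream, but 2.98 and 4.54 at its start site, in the authors' deposited table. Copg1, a coat protein gene of Golgi transport, had 5 promoter peaks and Dctn1, a dynactin gene, had 3, all of them lower while their intergenic peaks were 1.80 and 2.55-fold higher in that table. In all, 19 genes, among them Nfkbia, Poc1b, Ptpn1, Kank3 and Efnb1, had higher and lower intergenic peaks, or 4.85% of the 392 genes of higher peaks and 2.16% of the 879 genes of lower ones.

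Genes of 21 lists for vascular smooth muscle were looked up among the annotated genes. Of 564 list genes, 14 had a higher intergenic peak, 15 peaks in all, and 23 had a lower one, 30 peaks in all. Higher peaks were therefore 33.3% of the 45, beside 30.6% of all listed intergenic peaks. The median of the 15 was 2.35-fold, against 2.58-fold for the 434, and 0 of the 15 had an FDR under 0.05 per the authors' deposited table.

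**Figure D5:**
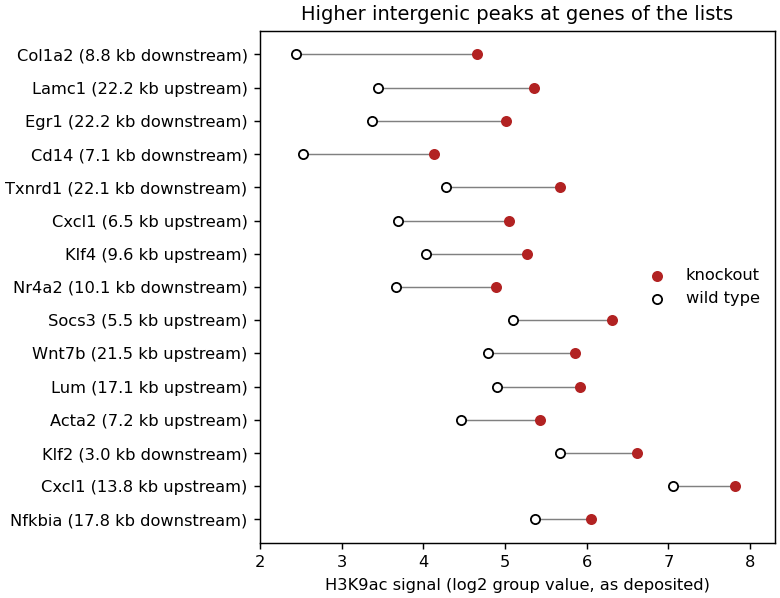
Log2 H3K9ac signal in knockout cells (filled) and wild-type cells (open) at the 15 higher intergenic peaks annotated to genes of the lists, ordered by fold change, with the distance from the annotated start site in kb. Col1a2 has the widest and Nfkbia the narrowest gap between the filled and the open circle.

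The contractile list had 1 higher peak and 6 lower ones. Acta2, the gene of smooth muscle actin, had a higher peak 7.21 kb upstream with 5.43 in the knockout and 4.46 in the wild type (1.95-fold, FDR 0.286 in the authors' deposited table), while peaks at Vcl, Tpm1, Des, Csrp1 and Actn1, which encode cytoskeletal and sarcomeric proteins, were lower. The matrix list had 3 higher peaks at 3 genes and 5 lower ones at 3 genes, Col5a1, Col6a2 and Fbln2. Higher were peaks at Col1a2, a fibrillar collagen gene (4.65 in the knockout, 2.44 in the wild type), at Lamc1, a laminin gene (5.35 and 3.44), and at Lum, the gene of the proteoglycan lumican (5.92 and 4.90). Their FDRs in the authors' deposited table were 0.0851, 0.0819 and 0.140, while 2 of the 3 lower Col5a1 peaks had FDRs of 0.0197 and 0.0261.

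In the inflammation list, Cxcl1 had a second higher peak 6.52 kb upstream, with 5.05 in the knockout and 3.69 in the wild type in the authors' deposited table, and no lower one. Nfkbia, which encodes the inhibitor of NF-kappa B, had a higher peak 17.8 kb downstream (6.05 in the knockout, 5.37 in the wild type) and a lower one 38.2 kb downstream (4.93 and 5.89) in that table. The leukocyte marker Cd14, the lipopolysaccharide co-receptor, had 4.13 in the knockout and 2.53 in the wild type at a peak 7.10 kb downstream and 10.3 and 9.50 at its start site in that table. The FDRs of these Cd14 peaks were 0.297 and 0.231 in that table. All 3 H3K9ac peaks listed for any of the 10 leukocyte markers, at Cd14 and Aif1, were higher in the knockout. Over all listed H3K9ac peaks 22.8% were higher. Leukocyte content of the cultures was not tested.

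Of the immediate early factors, Egr1 (5.01 in the knockout, 3.37 in the wild type), Klf4 (5.27 and 4.03), Nr4a2 (4.89 and 3.66) and Klf2 (6.61 and 5.67) had higher peaks in the authors' deposited table. Klf4 is known to repress contractile genes in smooth muscle cells. The Klf2 peak, 3.04 kb downstream of its start site, had the smallest FDR of the 15, 0.0522. Fos had 4 lower peaks and Nr4a1 had 1, at 1.49 to 2.77-fold lower signal in that table. Developmental transcription factors had 0 higher and 4 lower peaks by the authors' annotation, at Twist1, Osr1, Barx1 and Foxo1.

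Single higher peaks were listed at Txnrd1, which encodes a thioredoxin reductase (5.67 in the knockout, 4.27 in the wild type), at Wnt7b, a Wnt ligand gene (5.86 and 4.79), and at Socs3 in the authors' deposited table. The lists of angiotensin signalling, hydrogen sulfide metabolism and TGF-beta signalling had no listed intergenic peak in either direction by the authors' annotation. Only selected peaks are listed, so this says nothing of the level at those genes.

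The counts for the lists depended on how a gene was assigned to a peak. With the nearest RefSeq coding gene in place of the authors' annotation, 32 list genes had 40 higher peaks, against 46 genes with 66 lower ones, and higher peaks were 37.7% of the total. Then 7 of the 40 higher peaks (17.5%) had an FDR under 0.05, close to the 17.1% over all 434. One lay 12.3 kb from Irf1, the gene of an interferon-response factor, with 4.73 in the knockout and 2.29 in the wild type (5.43-fold, FDR 0.0438 in the authors' deposited table). By this assignment the TGF-beta list had 2 higher peaks, nearest to Smad2 and Smad6, and 5 lower ones, some also nearest to these genes. The list of developmental transcription factors then had 7 higher and 10 lower peaks. Besides the Irf1 peak, those of the 40 higher peaks with an FDR under 0.05 were nearest to Foxc1, Nkx2-3, Tbx18, Smad2, Rock1 and Sema3d. The Tbx18, Sema3d and Smad2 peaks lay far from these genes, at 84.0, 89.0 and 232.8 kb. A lower peak stood closer to Smad2, at 67.1 kb (FDR 0.0467 in that table). Rock1, which encodes a kinase of smooth muscle contraction, had 4.50 in the knockout and 1.66 in the wild type at 70.2 kb (FDR 0.0251 in that table).

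The annotation to microRNA genes covered 11 peaks of 10 genes, or 2.53% of the higher intergenic peaks, against 2.54% of the lower ones. Mir21a, whose microRNA is abundant in injured arteries and in proliferating smooth muscle, had a peak 9.63 kb downstream of its start (chr11:86574289-86574528), with 4.30 in the knockout and 2.29 in the wild type, 4.03-fold higher with an FDR of 0.269 per the authors' deposited table. The same peak lay 2.68 kb from Tubd1, a tubulin gene, so its tie to Mir21a rests on annotation alone. The Irf1 peak described above was annotated to Mir7671.

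None of the 434 peaks overlapped a listed H3K9me3 or H3K4me3 peak, and of the 985 lower intergenic peaks 0 overlapped an H3K9me3 peak and 2 an H3K4me3 peak. H3K9me3 is a mark of heterochromatin and H3K4me3 one of active promoters. A listed H3K9me3 peak lay within 10 kb of 12 higher intergenic peaks. The nearest one was higher for 5 of them and lower for 7, in each case at an FDR of 1 per the authors' deposited table, and 2 peaks annotated to Gm33321 shared theirs. The closest, 0.357 kb from the Gm15208 peak, was 7.01-fold lower in that table. Within 100 kb, 82 had a listed H3K9me3 peak (18.9%, against 16.4% of the lower intergenic peaks), and the nearest one was higher for 46.3% of the 82, against 61.0% of all 5374 listed. An H3K4me3 peak lay within 10 kb of 3, annotated to Ttll11, Sp1 and Ddx20, and within 100 kb of 21 (4.84%), against 9.85% of the lower intergenic peaks.

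The label of smooth muscle cells could be set only against listed peaks. Of 29 contractile genes, 17 had a listed H3K9ac peak, 45 peaks in all, 3 higher (6.67%) and 42 lower in the knockout, beside 22.8% higher over all listed H3K9ac peaks. Endothelial markers had 2 listed peaks, 1 of them higher, and fibroblast markers 3, 1 of them higher. Adipocyte markers had 1, which was lower, and neural crest or glial markers 1, which was higher. Their part in the results was not tested.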

How the data were processed

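The deposited H3K9ac table lists 1 peak per entry, with the authors' annotation, log2 signal (all, knockout and wild-type libraries), log2 fold change, p-value and FDR (a q-value), per the file headers. The peak widths and distances to a start site are the authors' values too, and the deposited width is 2 above end minus start. CASAVA 1.4 and the mm9 build are named in the submitters' processing notes. The aligner, normalisation, peak caller and differential method were not given in the sources used here. Positions were taken as GRCm38, because 61.1% of 460 H3K4me3 peaks and 42.0% of 2210 start-site H3K9ac peaks lay within 1 kb of a start site in RefSeq GRCm38.p6. Only 13.2% of all 7876 H3K9ac peaks outside chromosome 18 did.

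Peaks were selected by annotation and by the sign of the knockout minus the wild-type log2 signal, which equalled the deposited log2 fold change within 0.01. Values per library were not analysed here, so no test over samples was run, library depth is unknown, and the authors' p-values may measure technical spread. Counts, medians, exact binomial intervals (counting error only; peaks are not independent) and overlaps of at least 1 bp were computed with Python 3.11.15, numpy 2.4.6, pandas 2.3.3 and scipy 1.17.1, and drawn with matplotlib 3.10.9. The functions were tested on simulated data. Sequences are from RefSeq (GRCm38.p6), whose tables hold no window on chromosome 18 and are not complete.

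Names were drawn from the 10 peaks of smallest p, of largest fold and of largest knockout signal and from the 10 genes with most peaks. Others came from the 6 runs with most peaks, the peaks nearest to the threshold and up to 4 per gene list. Not every gene in these sets was named, and Pcdh1, among the 10 genes with most peaks, was left out. Numbered transcripts were named only where needed. Irf1, Rock1, Mir21a, the promoter genes and those with both directions were named after their values were seen. The peaks and lists were chosen with earlier results of these data known. Alternatives were stricter p and FDR, stronger signal, merged runs, fewer chromosomes, other distances and other gene assignments.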

Additional observations from a re-analysis of the deposited data

How the results depend on the processing

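Of 40 alternatives, 23 left the value within its interval or within 1.5 times the count, and 17 moved it. The causes were not tested. The share of intergenic peaks that were higher, 30.6%, was 28% at an FDR under 0.05, 22.3% among peaks above the median signal, 26.5% without chromosomes 11 and 18, and 22.5% without the 5 chromosomes where over 50% were higher. The median distance of 12366 bases was 15827.5 bases at an FDR under 0.05. The share on chromosomes 11 and 18, 22.1%, was 29.7% at an FDR under 0.05; chromosome 2 holds as many higher peaks as chromosome 18. The share within 100 kb of another, 30.0%, was 12.7% at p under 0.01, 9.46% at an FDR under 0.05 and 19.6% above the median signal, where fewer peaks enter, and 25.6% with a gap of 50 kb and 44.2% with 500 kb. The 36 genes with a promoter peak became 8, 3 and 6 under the same 3 filters, applied to fewer peaks. The 0 overlaps with other marks became 1 within 1 kb and 15 within 10 kb. The 14 list genes became 32 with the nearest RefSeq coding gene. That assignment, the removal of the 5 chromosomes and a share for chromosomes 11 and 2 were added after seeing the data.

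No paired analysis was possible because the tables give 1 value per group and none per library; leaving out each replicate could not be run for the same reason. The motif shares of the peaks themselves were not run, since no genome was given. Library depth is unknown, and several of the largest folds are taken against wild-type values at the lowest listed level.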
